A study of Mus musculus with 16 samples.

Results

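Lactate dehydrogenase, phosphoglycerate kinase and glyceraldehyde-3-phosphate dehydrogenase each exist in mouse testis as a somatic form and a germ-cell form encoded by separate genes. The 10 genes described here were chosen by symbol from 35920 genes in the deposited table. They are the germ-cell forms Ldhc, Pgk2, Gapdhs, Aldoart1 and Pdha2, the somatic forms Ldha, Pgk1 and Gapdh, and Pgam2 and Hk1, which are used in muscle or other tissues as well as in sperm. All 10 were found, each under 1 Ensembl identifier, and all 10 reached a normalized count of 10 in at least 2 of 16 libraries.

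Glycolysis breaks glucose down to pyruvate and supplies ATP to the sperm tail, where several of its enzymes are anchored to the fibrous sheath. Spermatogenic cells switch from the somatic to the germ-cell enzymes during meiosis and spermatid development. Pgk1 and Pdha1 lie on the X chromosome, which is silenced in meiotic spermatocytes, and their germ-cell counterparts Pgk2 and Pdha2 are autosomal genes without introns that arose by retrotransposition.

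RNA from mouse testis was bound to J2, a monoclonal antibody that recognises double-stranded RNA. Captured RNA (J2) and uncaptured RNA (flow-through) went into separate strand-specific libraries. The flow-through is labelled as lacking double-stranded and ribosomal RNA. The groups were Dicer KO testis (genotype Dcr-/-) at postnatal day 18 (P18), adult wild-type testis and wild-type testis at P18, each as J2 and as flow-through, with 3, 2 and 3 libraries per fraction. Dicer processes microRNA precursors and long RNA duplexes into small RNAs. All P18 mice had the strain label C57BL/6 x 129S4/SvJae, whereas the strain of the adults is given as unknown, so age and strain cannot be told apart. How Dicer was inactivated, and in which cells of the testis, is not given in the sources used here. The labels do not say that replicates came from separate animals, so p-values measure the spread between these libraries, which may be technical. P18 testes contain meiotic spermatocytes and few or no spermatids, whereas adult testes contain all stages.

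The deposited values are normalized counts. The worth of 1 read was approximated at 0.116 to 0.516 units in J2 libraries and 2.0 to 8.31 units in flow-through libraries. A value of 10 therefore stood for about 19.4 to 86.3 reads in J2 and only 1.20 to 4.99 reads in flow-through. All read figures given here are rough. The genes at whole multiples of the unit numbered 49 to 4237 (median 55) per J2 library and 16 to 95 (median 49) per flow-through library. Summed values correspond to about 1.23 to 4.54 M reads (M, 1e+06) per J2 library and 0.998 to 5.87 M reads per flow-through library. The 10 highest features held 43.6 to 67.5% of these sums in J2 and 95.8 to 98.8% in flow-through. Flow-through libraries therefore left far fewer reads for all other genes than their totals show. Spearman correlations between libraries of a group were 0.377 to 0.611 over 9526 genes. Genes that every cell uses, such as Pgk1, were listed at 0 in many libraries, so a 0 is given only as listed. Dicer1 had a highest value of 13.7 units and a 0 in 7 of 16 libraries, so the genotype labels could not be checked with it.

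The promoters of Ldhc and Ldha, of Pgk2 and Pgk1, and of Gapdhs are shown because the results below turn on these germ-cell genes and their somatic counterparts. Each window runs from 250 bases before to 50 bases after an annotated RefSeq transcription start (GRCm38.p6, 5′ to 3′ on the gene's strand). Capitals mark the core of the cAMP response element, which is TGACG, the GC box motif written as GGGCGG, the motif named by its letters CCAAT, and the TATA motif searched as TATAA, each on both strands. Adjoining matches run together, as in the TATAA matches of Ldhc and the palindromic pair of TGACG matches in Ldha.
Ldhc, start 1 of 2, chr7:46861013-46861312, plus strand: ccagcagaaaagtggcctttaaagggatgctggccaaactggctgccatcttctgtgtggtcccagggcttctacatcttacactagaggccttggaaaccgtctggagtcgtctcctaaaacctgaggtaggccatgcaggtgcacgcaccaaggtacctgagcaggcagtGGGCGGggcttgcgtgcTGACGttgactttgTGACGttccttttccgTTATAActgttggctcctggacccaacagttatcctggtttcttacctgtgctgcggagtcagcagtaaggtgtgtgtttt
Ldha, start 1 of 2, chr7:46845554-46845853, plus strand: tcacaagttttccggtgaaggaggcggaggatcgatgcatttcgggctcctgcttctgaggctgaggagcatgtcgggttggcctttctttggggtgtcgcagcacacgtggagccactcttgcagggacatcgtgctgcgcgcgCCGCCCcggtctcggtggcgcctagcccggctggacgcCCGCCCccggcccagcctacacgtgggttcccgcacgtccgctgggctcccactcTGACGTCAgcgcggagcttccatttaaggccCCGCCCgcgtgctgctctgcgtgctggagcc
Pgk2, chr17:40208560-40208859, minus strand: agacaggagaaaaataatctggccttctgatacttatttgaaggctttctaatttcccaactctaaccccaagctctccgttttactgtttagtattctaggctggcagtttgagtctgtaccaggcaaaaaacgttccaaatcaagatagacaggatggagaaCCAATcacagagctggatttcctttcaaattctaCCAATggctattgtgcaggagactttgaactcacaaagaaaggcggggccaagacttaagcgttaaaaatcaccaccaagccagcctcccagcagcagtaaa
Pgk1, chrX:106186850-106187149, plus strand: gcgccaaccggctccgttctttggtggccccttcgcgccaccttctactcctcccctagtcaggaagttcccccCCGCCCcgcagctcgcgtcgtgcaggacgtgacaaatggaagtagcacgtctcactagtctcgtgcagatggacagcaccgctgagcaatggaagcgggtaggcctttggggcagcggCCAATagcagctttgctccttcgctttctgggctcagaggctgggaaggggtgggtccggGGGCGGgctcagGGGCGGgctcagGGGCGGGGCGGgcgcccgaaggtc
Gapdhs, start 2 of 2, chr7:30743632-30743931, minus strand: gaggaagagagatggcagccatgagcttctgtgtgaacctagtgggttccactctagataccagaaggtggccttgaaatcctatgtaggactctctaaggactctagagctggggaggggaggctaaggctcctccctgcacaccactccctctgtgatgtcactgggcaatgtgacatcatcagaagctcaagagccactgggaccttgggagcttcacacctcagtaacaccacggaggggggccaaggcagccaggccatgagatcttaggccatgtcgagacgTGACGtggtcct

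The Ldhc window holds TGACG at -61 and -47 from the start, a GC box at -78 and TATAA matches at -31 and -30, one on each strand. In the Ldha window the overlapping TGACG matches on opposite strands begin at -12 and -9, and 3 GC boxes are present. The Pgk2 window has no GC box and has CCAAT at -86 and -52, while the Pgk1 window has 5 GC boxes and CCAAT at -58. The only match in the Gapdhs window shown is TGACG at +39, downstream of the start. Of the other annotated starts of these genes, not shown, Ldhc start 2 and Gapdhs start 1 hold none of the motifs. Ldha start 2 holds only TGACG at -143, so the windows shown are those with more matches. Of all 32851 promoter windows of this length, 20.8% hold TGACG, 35.7% hold GGGCGG, 37.4% hold CCAAT and 24.9% hold TATAA, so these matches are common and are given as a description of the sequence only. The promoter windows of the remaining members are not shown.

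Lactate dehydrogenase interconverts pyruvate and lactate. Ldhc (chr7:46861263-46878147) encodes the subunit restricted to male germ cells and required for sperm motility, and Ldha (chr7:46842274-46855627) encodes the A subunit found in muscle and many other tissues. In J2 RNA, Ldhc had 427, 475 and 634 normalized counts in Dicer KO testis, 769 and 954 in adult testis and 554, 1345 and 692 in wild-type P18 testis. In flow-through RNA it had 157, 134 and 99.4 in KO, 392.3 and 159 in adults and 143, 190.0 and 127 in wild-type P18. Every J2 library lay above every flow-through library, in all 3 conditions and across them. Wild-type P18 J2 replicate 2 stood highest. Mean ± SD values in J2 were 512 ± 108 in KO (n = 3), 862 ± 131 in adults (n = 2) and 863 ± 423 in wild-type P18 (n = 3).

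Ldhc rose in J2 relative to flow-through in wild-type P18 testis, by 2.40 on the log2 scale (SE 0.55, limma adjusted p = 0.0469). It was the 1 of 10 members called higher, against 0.525% of the 9526 genes tested, and 0 members were called lower, against 0.378%. The estimates in KO (1.97, SE 0.55, limma adjusted p = 0.141) and adult testis (1.77, SE 0.67, limma adjusted p = 0.657) had the same sign and did not pass. In these conditions 0 members were called in either direction, against 0.357% of genes in KO and 0.315% in adults. At an unadjusted p below 0.05, limma gave 2 of 10 members in KO, against 11.5% of genes, 1 in adults, against 6.64%, and 2 in wild-type P18, against 13.9%. The 2 in wild-type P18 include Pgk1, which entered the test only through J2 libraries, so this count is not read as a result. The wild-type call lies close to the threshold of 0.05: leaving out any 1 of the 6 wild-type P18 libraries removed it, with estimates of 2.03 to 2.67 and limma adjusted p of 0.0543 to 0.143. It was also lost with a pseudocount of 5 (limma adjusted p = 0.0565), with no filter on low values (0.0866) and with only the libraries of the groups compared (0.0554). The flow-through values of Ldhc stood for about 15.3 to 94.8 reads per library and the J2 values for about 1227 to 8240 reads.

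J2 against flow-through differences here are relative to the authors' scaling, in which the median gene differed by only -0.15 (KO), 0.05 (adult) and -0.05 (wild-type P18) on the log2 scale. If every library is instead scaled to the same total over nuclear genes, these medians become 2.16, 2.74 and 1.87. This common total leaves out only the mitochondrially encoded genes. In flow-through, 10 features held 95.8 to 98.8% of all units, and their part in this shift was not tested. With the common total a lower value in J2 can turn into a higher one, and the differences say nothing about the amount of RNA captured.

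Ldha differed little between the fractions. Its J2 values were 28.6, 109.5 and 69.7 in KO, 166 and 153 in adults and 103, 181 and 142 in wild-type P18. In flow-through it had 86.7, 67.2 and 34.1 in KO, 212 and 84.0 in adults and 90.1, 99.2 and 137 in wild-type P18. J2 and flow-through libraries overlapped in each condition, and the log2 differences were 0.05 (KO), 0.25 (adult) and 0.37 (wild-type P18), with SE 0.68 to 0.83. In flow-through, all 3 KO libraries lay below all 3 wild-type P18 libraries, with a log2 difference of -0.86 that did not pass the test (SE 0.51, limma adjusted p = 0.852).

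The log2 ratio of Ldhc to Ldha within a library, in which a scaling factor of the library cancels apart from the pseudocount of 1, compares the fractions without that dependence. It is not per length, so only its movement is read. In J2 the ratio averaged 3.04 ± 0.88 in KO (SD, n = 3), 2.42 ± 0.30 in adults (n = 2) and 2.53 ± 0.32 in wild-type P18 (n = 3). In flow-through it averaged 1.12 ± 0.35 in KO, 0.90 ± 0.02 in adults and 0.49 ± 0.54 in wild-type P18. J2 exceeded flow-through by 1.93 in KO, 1.52 in adults and 2.03 in wild-type P18, with no overlap of libraries in any condition. Between ages and genotypes the ratio overlapped in both fractions.

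**Figure D1:**
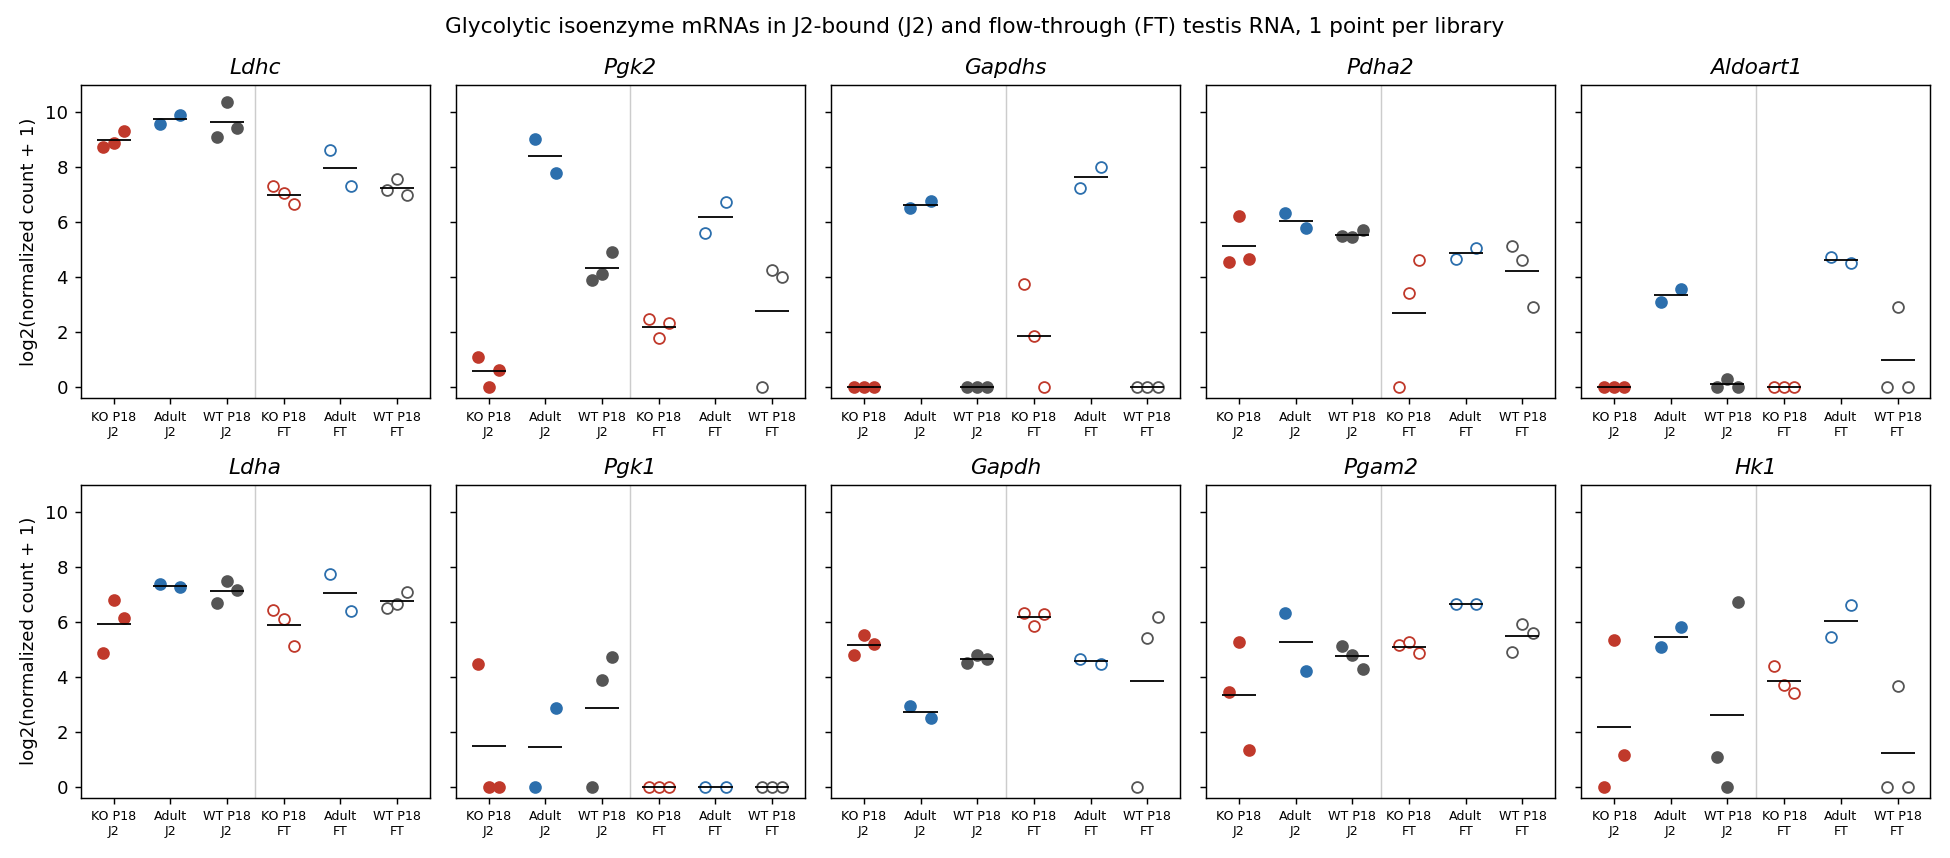
Each point is 1 library, the y axis is log2(normalized count + 1) and bars are group means on that scale, with J2 groups (filled) left of flow-through groups (FT, open). The J2 points of Ldhc lie above all its flow-through points, and Gapdhs, Pgk2 and Aldoart1 stand highest in the adult groups.

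Phosphoglycerate kinase makes ATP in the first energy-yielding step of glycolysis. Pgk2 (chr17:40207018-40208609) encodes the germ-cell enzyme, which is transcribed from meiosis onwards and is needed for sperm motility and male fertility. In J2 RNA, Pgk2 had 1.11, 0 and 0.548 normalized counts in KO, 521 and 221 in adults and 13.97, 16.4 and 29.5 in wild-type P18. The 3 conditions did not overlap in J2. Its flow-through values were 4.60, 2.42 and 4.02 in KO, 48.1 and 107 in adults and 0, 18.4 and 15.2 in wild-type P18. Adults stood apart in flow-through as well, while KO lay within the range of wild-type P18. The KO flow-through values stood for about 0.567, 1.18 and 1.45 reads, which is at the limit of what those libraries can show.

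Adult against wild-type P18 estimates for Pgk2 were 4.09 in J2 (SE 1.06, limma adjusted p = 0.0591) and 3.42 in flow-through (SE 1.38, limma adjusted p = 0.359), and neither passed. With a pseudocount of 5, the J2 estimate of 3.84 passed (limma adjusted p = 0.0144), and with only the libraries of the groups compared it passed as well (limma adjusted p = 0.0270). KO against wild type in J2 gave -3.75 (SE 0.95, unadjusted p = 0.00289, limma adjusted p = 0.679), which did not pass although the libraries did not overlap. No gene of the 6882 tested passed in that comparison. Relative to flow-through, Pgk2 in J2 was higher without overlap in adults (2.23, SE 1.32) and lower without overlap in KO (-1.62, SE 1.08). Neither difference passed the test, with limma adjusted p of 0.820 in adults and 0.602 in KO, and the KO estimate becomes 0.37 with a common total.

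Pgk1 (chrX:106187100-106203699) encodes the somatic phosphoglycerate kinase and has processed pseudogenes that can share its reads, so its level is uncertain. In J2 it had 21.1, 0 and 0 in KO, 0 and 6.35 in adults and 0, 13.9 and 25.3 in wild-type P18. It was listed at 0 in all 8 flow-through libraries. Pgk1 was thus above 0 in 4 of 16 libraries, and its J2 against flow-through estimates, 1.44 to 2.87 with SE 1.21 to 1.48, did not pass in any condition. It reached 10 units in J2 libraries only, so it entered these tests through J2 alone and could not be lower there. Within flow-through it did not reach the filter on low values.

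Glyceraldehyde-3-phosphate dehydrogenase catalyses the first oxidative step of glycolysis. Gapdhs (chr7:30729779-30744791) encodes the sperm enzyme, which is made in spermatids and bound to the fibrous sheath of the tail. In J2 it was listed at 0 in all 3 KO libraries, had 89.7 and 108 normalized counts in adults and was listed at 0 in all 3 wild-type P18 libraries. In flow-through it had 12.5, 2.58 and 0 in KO, 152 and 259.8 in adults and 0 in each wild-type P18 library. Both adult groups stood clear of all P18 libraries. The adult values stood for about 362 and 930.4 reads in J2 and about 31.4 and 121 reads in flow-through, while the non-zero KO flow-through values stood for about 1.54 and 1.27 reads.

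Gapdhs rose in adults against wild-type P18 in J2 (limma log2 estimate 6.63, SE 0.71, adjusted p = 0.000243) and in flow-through (7.64, SE 1.34, adjusted p = 0.0100). These estimates depend on the pseudocount, because every wild-type P18 library is listed at 0, and no fold change is given. Gapdhs passed the filter on low values in J2 only through its adult libraries, so it had to differ there, and in flow-through through these and 1 KO library. It was the 1 of 9 tested members called higher in each fraction, against 5.07% of the 6882 genes tested in J2 and 3.08% of the 7141 tested in flow-through. 0 members were called lower, against 0.392% of genes in J2 and 0.154% in flow-through. Without adult replicate 1 or 2 the flow-through call was lost (estimates 8.03 and 7.25, limma adjusted p = 0.520 and 0.379), and in J2 Gapdhs then no longer reached the filter.

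Gapdh (chr6:125161852-125166467) encodes the somatic enzyme and has many processed pseudogenes in the mouse genome, so its reads may be shared with them. In J2 it had 26.8, 45.1 and 36.1 in KO, 6.65 and 4.73 in adults and 21.5, 26.5 and 24.0 in wild-type P18. Flow-through libraries gave 80.1, 57.1 and 77.4 in KO, 24.4 and 21.0 in adults and 0, 41.9 and 71.3 in wild-type P18. All adult J2 values lay below, and all KO J2 values above, those of wild-type P18. The adult estimate in J2 was -1.91 (SE 0.90, limma adjusted p = 0.392) and the KO estimate 0.54 (SE 0.80, limma adjusted p = 0.960). Gapdh in J2 also lay below flow-through without overlap in KO (-0.98, SE 1.15) and adults (-1.84, SE 1.40). Neither passed the test, and both become positive with a common total, at 2.99 and 2.10.

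The log2 ratio of Gapdhs to Gapdh put the adult libraries on the other side of 0. In J2 it averaged -5.18 ± 0.37 in KO (SD, n = 3), 3.91 ± 0.48 in adults (n = 2) and -4.64 ± 0.15 in wild-type P18 (n = 3). In flow-through, libraries ranged from -6.29 to -2.59 in KO, from 2.59 to 3.57 in adults and from -6.18 to 0 in wild-type P18. Adult minus wild-type P18 differences were 8.55 in J2 and 6.94 in flow-through, without overlap. Both sizes depend on the pseudocount, at 9.62 in J2 and 7.63 in flow-through with 0.5, and 5.81 and 5.27 with 5. The ratio of 0 in wild-type P18 flow-through replicate 1 comes from both genes being listed at 0.

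**Figure D2:**
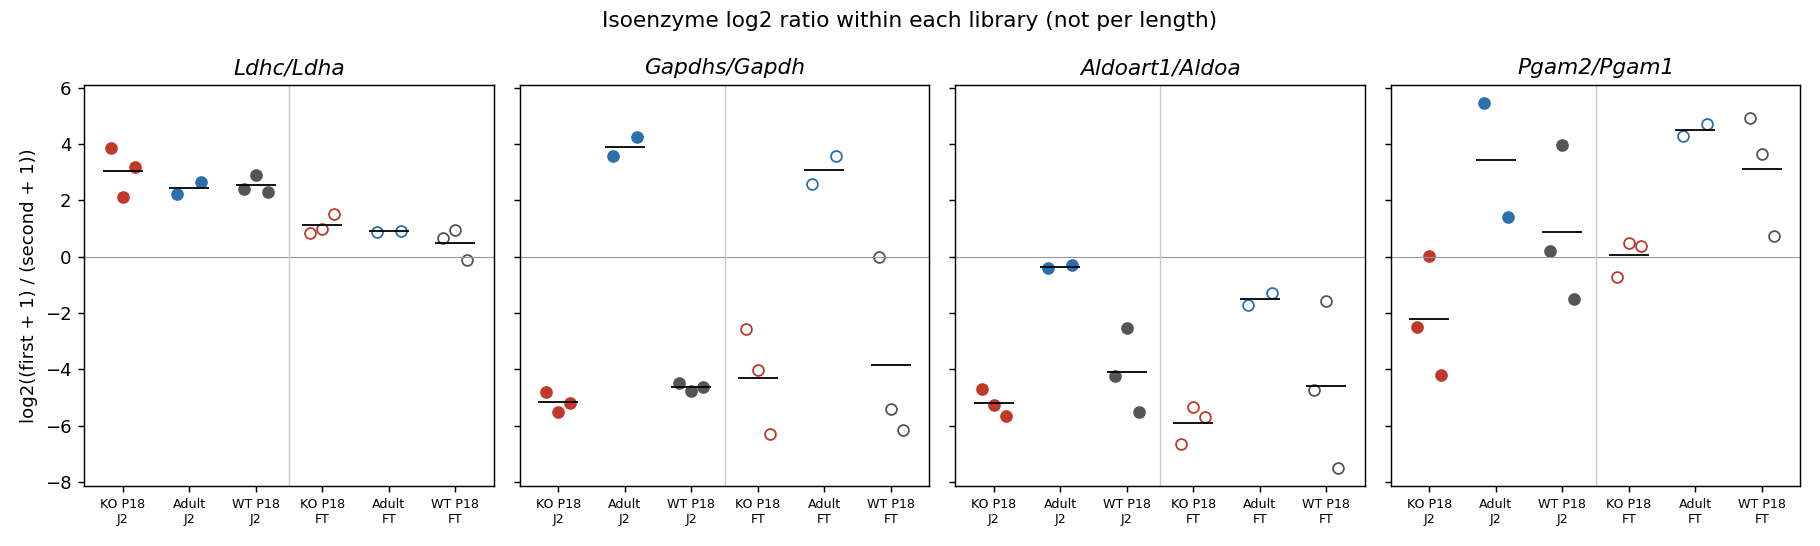
The y axis is the log2 ratio of a germ-cell or muscle-type gene to its somatic partner (each + 1) within 1 library, not per length, with 1 point per library and bars for group means. The Ldhc to Ldha ratio separates J2 (filled) from flow-through (FT, open), and the Gapdhs to Gapdh ratio is above 0 only in the 4 adult libraries, with 1 wild-type P18 flow-through library at 0.

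Markers of spermatids, the cells in which Gapdhs is made, moved with age in these libraries. The summed level of 8 spermatid markers (Acrv1, Tnp1, Tnp2, Prm1, Prm2, Spaca1, Acr and Tssk6) in J2 was 5.74 to 7.54 in KO, 922 to 1690.2 in adults and 3.56 to 36.1 in wild-type P18. In flow-through it was 11.1 to 38.4 in KO, 1899 to 2269.7 in adults and 20.6 to 29.8 in wild-type P18. In J2 7 of the 8, and in flow-through 6 of the 7 that could be tested, reached the filter only through the adult libraries, so they had to differ and no count of calls is read from them. Acrv1, Tnp2, Prm1 and Tssk6 were listed at 0 in every wild-type P18 J2 library, and Acrv1, Tnp1, Spaca1 and Tssk6 in every wild-type P18 flow-through library. All 8 were above 0 in adults in both fractions. In bulk testis RNA, fewer cells of a type and less RNA per cell cannot be told apart, and the part of the cell mixture in the adult differences was not tested.

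Markers of meiotic spermatocytes (8 genes) were present in every group, with sums in J2 of 79.6 to 202 in KO, 164 to 274 in adults and 203 to 251 in wild-type P18. In flow-through they were 263 to 729 in KO, 194 to 276 in adults and 194 to 397 in wild-type P18. The sum in KO J2 was below that of wild-type P18 J2, with the highest KO and the lowest wild-type value close together, beside the low Pgk2 values in the same libraries, whereas in flow-through KO and wild type overlapped. Summed levels of 8 Sertoli cell markers in J2 were 290.1 to 562 in KO, 73.1 to 143 in adults and 153 to 553 in wild-type P18, and those of 5 red-cell markers were 104 to 194, 5.79 to 5.81 and 106 to 445 in the same order of groups. The part of these marker levels in the results for Pgk2 and Gapdh was not tested.

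**Figure D3:**
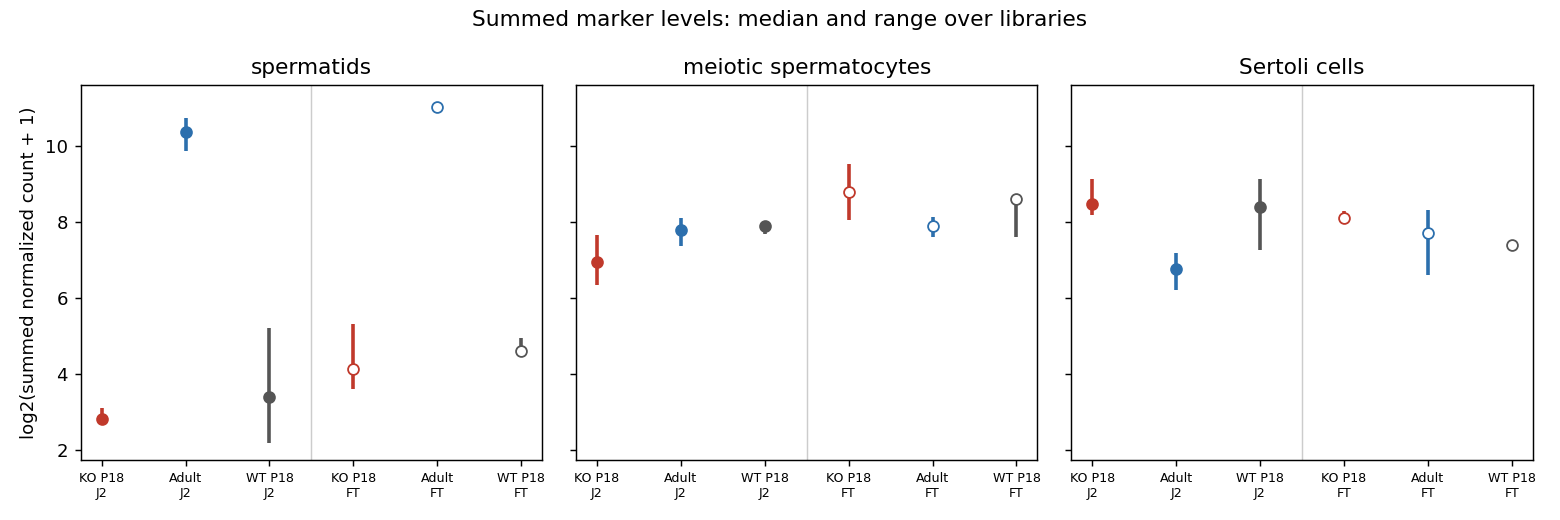
Points are medians and vertical lines the range over libraries of log2(summed normalized count + 1) for markers of spermatids, meiotic spermatocytes and Sertoli cells, with J2 groups left of flow-through (FT) groups. Spermatid marker sums are 922 units or more only in the adult groups, whereas spermatocyte and Sertoli cell markers are present in every group.

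Aldoart1 (chr4:72850583-72852634), a retrogene of aldolase A that is expressed in male germ cells, followed a similar order of groups. Aldolase splits fructose bisphosphate into triose phosphates. In J2 it was listed at 0 in all KO libraries, had 7.55 and 10.9 in adults and had 0, 0.232 and 0 in wild-type P18. In flow-through it was listed at 0 in all KO libraries, had 25.4 and 21.9 in adults and had 0, 6.62 and 0 in wild-type P18. Adults did not overlap with P18 in either fraction. The adult flow-through values stood for about 5.25 and 10.2 reads. Aldoart1 did not reach the filter within J2, and its estimate of 3.64 in flow-through did not pass (SE 1.02, limma adjusted p = 0.119). It reached the filter in flow-through only through its adult libraries, so it had to differ there.

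The parent gene Aldoa, which the reads of Aldoart1 may partly resemble, had 25.1, 37.8 and 49.7 normalized counts in KO J2, 10.3 and 13.9 in adult J2 and 18.1, 6.20 and 44.7 in wild-type P18 J2. The log2 ratio of Aldoart1 to Aldoa was higher in adult than in wild-type P18 J2, by 3.75, without overlap. In flow-through the difference was 3.10 and the libraries overlapped. Because Aldoart1 was at or near 0 at P18, these sizes depend on the pseudocount, at 4.59 in J2 and 3.76 in flow-through with 0.5, and 1.94 and 1.64 with 5. Reads of these close copies could be divided differently by another counting method, so their levels are uncertain.

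Phosphoglycerate mutase converts 3-phosphoglycerate to 2-phosphoglycerate. Pgam2 (chr11:5801637-5803796) encodes the muscle-type subunit, which is also found in mature sperm. In J2 it had 9.94, 37.2 and 1.53 in KO, 79.1 and 17.4 in adults and 34.2, 27.0 and 18.8 in wild-type P18. In flow-through it had 34.9, 37.3 and 28.0 in KO, 100.7 and 98.6 in adults and 29.0, 59.8 and 47.8 in wild-type P18. Adults overlapped with wild-type P18 in J2 and lay above it in flow-through, where the estimate of 1.17 did not pass (SE 0.52, unadjusted p = 0.0496, limma adjusted p = 0.423). Its ubiquitous partner Pgam1 was listed at 60.4, 37.0 and 45.5 in KO J2, 0.833 and 6.02 in adult J2 and 29.4, 0.811 and 54.9 in wild-type P18 J2. KO libraries had a lower Pgam2 to Pgam1 log2 ratio than wild-type P18 in flow-through, with a difference of -3.04 and no overlap (-2.06 with a pseudocount of 5). Pgam2 itself overlapped between these groups. Pgam1 in flow-through had 58.1, 26.1 and 21.2 in KO and 0, 3.91 and 28.2 in wild-type P18. These wild-type values stood for about 0, 1.95 and 3.39 reads, so the difference in ratio rests on Pgam1 near the limit of detection.

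Hexokinase 1 (Hk1, chr10:62268855-62379920) phosphorylates glucose, and germ cells use their own transcripts of the gene, which gene-level values cannot separate from the somatic ones. In J2, Hk1 had 0, 39.8 and 1.25 in KO, 33.0 and 54.9 in adults and 1.13, 0 and 106 in wild-type P18. Single libraries set its level in both P18 groups. Values in flow-through were 20.01, 12.2 and 9.80 in KO, 42.7 and 96.2 in adults and 0, 11.8 and 0 in wild-type P18. Adults lay above wild-type P18 in flow-through, and the estimate of 4.80 did not pass (SE 1.31, limma adjusted p = 0.106). It passed without wild-type P18 flow-through replicate 2 (6.03, limma adjusted p = 0.0181) and with a pseudocount of 5 (3.21, limma adjusted p = 0.0424).

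Pyruvate dehydrogenase links glycolysis to the citric acid cycle. Pdha2 (chr3:141210004-141212355) encodes its germ-cell E1 alpha subunit. In J2 it had 22.2, 73.5 and 24.5 in KO, 79.1 and 53.7 in adults and 44.2, 42.9 and 51.3 in wild-type P18. In flow-through it had 0, 9.85 and 23.6 in KO, 24.6 and 32.6 in adults and 33.9, 23.5 and 6.62 in wild-type P18. J2 lay above flow-through without overlap in adults (1.17, SE 1.26) and wild-type P18 (1.33, SE 1.03), and with overlap in KO (2.46, SE 1.03). None passed, the lowest limma adjusted p being 0.372 in KO. The X-linked Pdha1 did not reach the filter, with 0 listed in 12 of 16 libraries.

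**Figure D4:**
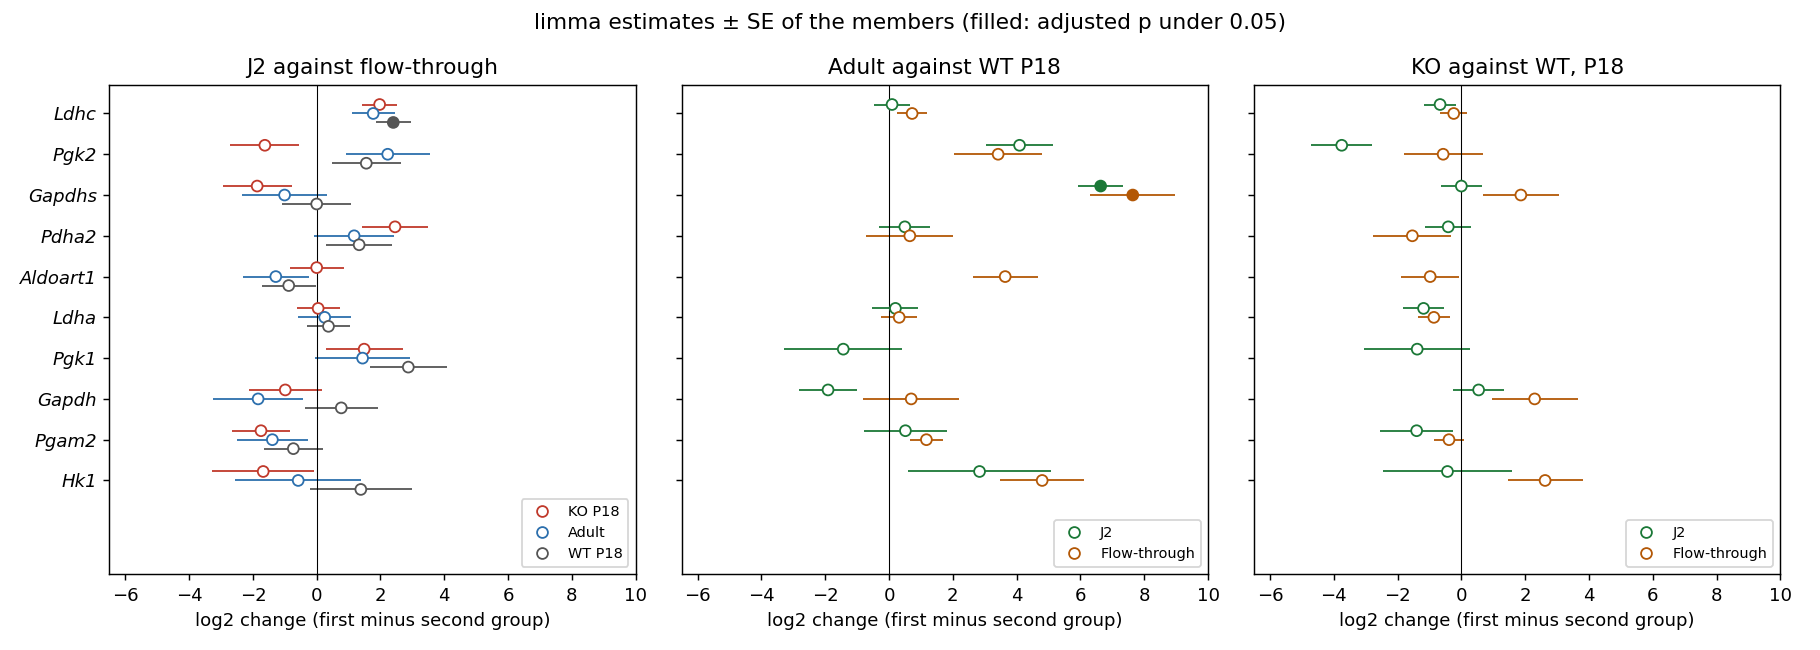
Points are limma log2 estimates with bars of 1 SE for the 10 members, filled where the adjusted p is under 0.05, for J2 against flow-through, adult against wild-type P18 and KO against wild type. Filled points are Ldhc in wild-type P18 and Gapdhs in adults in both fractions, and members below the filter have no point.

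Across the comparisons, the members' libraries separated without overlap as follows. J2 and flow-through did not overlap for 3 of 10 members in KO, against 18% of all genes tested, for 7 of 10 in adults, against 35.7%, and for 2 of 10 in wild-type P18, against 15.4%. Ldhc was higher in J2 in each of the 3, and no other member was. KO and wild type did not overlap for 2 of 9 members in J2 (Gapdh higher, Pgk2 lower), against 9.9% of genes, and for 1 of 9 in flow-through (Ldha lower), against 10.6%. Adult and wild-type P18 did not overlap for 4 of 9 tested members in J2, against 27.6%, and for 5 of 9 in flow-through, against 25.1%. These include Gapdhs in J2 and Aldoart1 in flow-through, which had to differ as stated above. The small groups of 2 and 3 libraries separate often, as the shares over all genes show.

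KO against wild type gave 0 members called in J2 and 0 in flow-through by limma, against 0% of all genes in each. At an unadjusted p below 0.05 there was 1 member in each fraction, Pgk2 in J2, against 6.39% of genes, and Hk1 in flow-through (2.63, SE 1.17, limma adjusted p = 0.802), against 6.11%. The test of whether the J2 against flow-through difference itself differed between KO and wild type called 0 members, against 0% of genes, and 0 had an unadjusted p below 0.05, against 4.78%. The same test between adults and wild-type P18 also called 0 members, against 0% of genes, and 0 had an unadjusted p below 0.05, against 5.4%. For Ldhc these interaction estimates were -0.43 (SE 0.78) for genotype and -0.63 (SE 0.87) for age. For Pgk2 the genotype estimate was -3.18 (SE 1.52, limma adjusted p = 0.993). The median log2 change of the 10 members in J2 against flow-through was -0.49 in KO, -0.16 in adults and 1.05 in wild-type P18, beside medians over all genes of -0.15, 0.05 and -0.05. These medians include Pgk1, which entered only through J2 libraries. In adult against wild-type P18 flow-through, limma gave 5 of 9 tested members an unadjusted p below 0.05, against 11.7% of genes. The median log2 change of the 9 was 1.17, beside 0.28 over all genes. Both values include Aldoart1, which had to differ, and Gapdhs, which reached the filter through the adult libraries and 1 KO library. Nothing is therefore read from them.

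Other genes of glycolysis and pyruvate use were taken as a list of 45, of which 44 were in the table and 34 reached the filter over 16 libraries. Of these, 1 was called in any comparison: Aldoart2, another germ-cell aldolase retrogene, rose in adult against wild-type P18 flow-through (4.98, SE 1.09, limma adjusted p = 0.0361). It ranged from 20.8 to 44.7 in adult flow-through and was listed at 0 in all wild-type P18 flow-through libraries. Aldoart2 reached the filter only through the adult libraries and so had to differ. In adult against wild-type P18 flow-through 28 genes of the list were tested. Of these, 3, with Aldoart2 among them, reached the filter only through the adult libraries and had to differ. By limma, 6 of the 28 had an unadjusted p below 0.05, against 11.7% of all genes. The list's median log2 change there was 0.59, beside 0.28 over all genes. Both values include these 3 genes, so nothing is read from them. None of the list was called in J2 against flow-through in any condition by limma, with 4 of 34 at an unadjusted p below 0.05 in each, beside the shares of all genes given above.

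By mean normalized count, not per length, the highest of the list in flow-through were Slc2a3, the neuronal-type glucose transporter that sperm also carry, at 192 ± 84.7 (SD, n = 8 libraries), the transporter chaperone Bsg at 80.7 ± 33.5 and the fructose transporter Slc2a5 at 79.4 ± 57.9. In J2 they were Ldhal6b, a lactate dehydrogenase-like gene of male germ cells, at 157 ± 78.0, Slc2a3 at 106 ± 112 and the pyruvate dehydrogenase E1 beta subunit gene Pdhb at 95.8 ± 72.5. Ldhal6b had 43.6 to 213 in KO J2, 182 to 194 in adult J2 and 131 to 285 in wild-type P18 J2, against flow-through ranges of 17.3 to 54.1, 74.6 to 98.2 and 14.9 to 121. Its J2 against flow-through estimates were 1.74 in KO, 1.12 in adults and 1.59 in wild-type P18 (SE 0.83 to 1.02), and none passed. Pdhb in wild-type P18 had 46.7 to 225 in J2, against 0 to 29.3 in flow-through, without overlap (4.05, SE 1.20, limma adjusted p = 0.108).

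For members with at least 10 units in 8 or more libraries, the genes with the most similar pattern were taken by Pearson's r of log2(normalized count + 1) over the 16 libraries, among 3363 genes. The libraries share fractions, ages and depth, so these are descriptions only. Nearest to Ldhc were Dynlt1f (0.89), Arl4a (0.88) and AA467197 (0.87). Nearest to Pgk2 were Ak9 (0.85), Ica1l (0.81) and 1700123L14Rik (0.79). For Ldha the first was Lrrc27 (0.81), for Gapdh Rps4l (0.85), for Pgam2 Dnaaf1 (0.85), for Hk1 Kcmf1 (0.77) and for Pdha2 4922502D21Rik (0.84). No member was among the 3 nearest of another. Gapdhs, Aldoart1 and Pgk1 reached 10 units in only 5, 3 and 3 libraries and were not compared.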

How the data were processed

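Testis RNA captured with the J2 antibody and uncaptured flow-through RNA were sequenced in 16 libraries. The authors deposited 1 normalized count per Ensembl gene and library, a signal that is no longer whole reads. Per the submitters' processing notes, FastQC, Trimmomatic, Salmon and DESeq2 were used with build mm10, with no versions given, and per the labels' protocols the NuGEN Ovation SoLo kit is strand-specific. Salmon divides reads among similar transcripts by estimation, and the scaling brings the median gene of the fractions close together. Of the identifiers, 35446 had a symbol and 474 had none. Columns were assigned through their labels (0 unassigned, 0 identical pairs). Whole reads could not be recovered for most genes, so no count test was run. The worth of 1 read was approximated in each library from its non-zero values, with genes equal in every library counted once. Of the values shared by several genes, the one with the most genes at its whole multiples, up to 20, was taken.

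The test was limma 3.58.1 under R 4.3.3, on log2(value + 1) with trended empirical Bayes, two-sided, with Benjamini-Hochberg adjustment over all genes tested and a threshold of 0.05. Changes on this scale understate those of low genes. Only genes reaching 10 units in 2 or more fitted libraries entered. The J2 against flow-through contrasts and the interactions were fitted over all 16 libraries, and adult or KO against wild-type P18 within each fraction over its 8 libraries. The fits were tested on simulated data. Named were all members, their partners Aldoa, Pdha1 and Pgam1, called genes and the 3 highest per fraction of the other glycolysis list, and the 3 genes most alike to each member. Members and lists were chosen with earlier results of these data known. Promoters and coordinates are from RefSeq (GRCm38.p6, which mm10 names); Aldoart1 had no promoter entry. Alternatives were other pseudocounts, filters and scalings, fewer groups in the fit, a replicate block and leaving out each library.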

Additional observations from a re-analysis of the deposited data

Results flagged for a closer look

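Pgk2 differed between J2 and flow-through in opposite directions in KO and adult testis, without overlap of libraries in either. The log2 difference was -1.62 in KO and 2.23 in adults, and neither passed the test against flow-through. The difference between these conditions was not tested. With a common total the KO estimate becomes positive, as given above. J2 and flow-through libraries did not overlap for 18% of all genes tested in KO and 35.7% in adults. In KO, Pgk2 had 1.11, 0 and 0.548 units in J2, against 4.60, 2.42 and 4.02 units in flow-through, and the flow-through values stood for about 0.567 to 1.45 reads. In adults it had 521 and 221 units in J2, against 48.1 and 107 in flow-through.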

How the results depend on the processing

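Of 272 settings of counts and ratios, 246 stayed within the tolerance of the main value and 26 moved. Of 36 settings of single called members, 24 kept their call, 12 lost it and 0 reversed. For members higher in J2 than in flow-through in wild-type P18, the count of 1 became 0 with a pseudocount of 5, with no filter, with only the groups compared and with each wild-type P18 library left out (range 0 to 0). It became 6 with a common total. In KO the count of 0 became 1 with a filter at 50 and 4 with a common total, and in adults it became 6 with a common total. For adult against wild-type P18 in J2, the count of 1 became 2 with a pseudocount of 5, with no filter and with only the groups compared, and was 0 to 1 with libraries left out, 0 without either adult library. In flow-through it became 2 with a pseudocount of 5 and was 0 to 3 with libraries left out, 3 without wild-type P18 replicate 2. The adult minus wild-type P18 difference of the Gapdhs to Gapdh log2 ratio in J2 moved to 9.62 with a pseudocount of 0.5 and 5.81 with 5, and that of the Aldoart1 to Aldoa ratio moved to 1.94 with 5, which is by construction because Gapdhs and Aldoart1 are at or near 0 in these P18 libraries. Apart from this, the cause was not tested. Where an adult library is left out, the remaining one is assumed to vary like the other groups. A code in the table's header pairs 1 J2 with 1 flow-through library, and the labels do not say what the code marks. Deviations from group means within the 8 such pairs correlated at -0.03 to 0.03, with 0 over 0.1. Such low values cannot decide whether a pair came from 1 animal, because each group holds only 2 or 3 libraries that correlate moderately. With a replicate block by this code the wild-type P18 count was 0 (Ldhc 2.40, limma adjusted p = 0.114). Few reads per unit limit flow-through most, where a value of 10 stands for 1.20 to 4.99 reads.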
